A study of Homo sapiens with 64 samples.

Results

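The comparison is between dividing cells of 2 colorectal cancer cell lines, DLD1 and HCT15, which the study placed in the same subtype, CCS3. It used the 8 RNA sequencing libraries of sorted non-label-retaining cells (non-LRCs, called BULK in the labels and described there as cycling), 4 labelled DLD1 and 4 labelled HCT15, out of 64 libraries in the series. Cells were loaded with the dye CFSE, which daughter cells share out between them when a cell divides, grown as non-adherent spheroids in serum-free medium with EGF and bFGF, and sorted on day 6. Label-retaining cells (LRCs) were those that stayed bright, and non-LRCs were the remaining cells. No drug was given to either group, and no gene was altered. Each group was a single established line in 4 replicates, described by the study as biological replicates. The labels do not say whether these came from separate passages, so p-values measure the spread between these libraries. In adherent culture the study kept DLD1 in DMEM/F12 and HCT15 in RPMI, and the spheroid media were based on these. The final numbers in the library titles also run together within a line. Line, medium and these numbers cannot be told apart.

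DLD1 and HCT15 are both established adenocarcinoma lines that are widely held to come from the tumour of the same person. Both have truncated APC and a defect in the mismatch repair gene MSH6, so their genomes keep acquiring mutations in culture. In normal colon, stem cells that carry LGR5 sit at the crypt base under high Wnt signaling, and their daughters become absorptive enterocytes, mucin-secreting goblet cells or hormone-secreting enteroendocrine cells as they move up. The subtypes CCS1 to CCS3 sort colorectal cancers by expression profile, and CCS3 is the group with mesenchymal features.

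Both groups expressed general genes of epithelium. EPCAM, an adhesion molecule of epithelial cells, was at 864, 914, 774 and 828 CPM (counts per 1000000 reads on genes, with library totals scaled by TMM over all 64 libraries) in DLD1 and at 880, 887, 882 and 941 CPM in HCT15. CDH1, which encodes E-cadherin, was at 1047, 954, 1124 and 1184 CPM in DLD1 and at 1045, 851, 962 and 1093 CPM in HCT15. The groups overlapped for both genes, and neither passed the test (edgeR adjusted p = 0.283 and 0.337). GPA33 and LGALS4, also listed as markers of colorectal epithelium, were less abundant. Their means were 25 and 8.52 CPM in DLD1 and 4.49 and 4.33 CPM in HCT15. LGALS4 was at 607 CPM in HT55 and 979 CPM in SW948, and at 0.14 CPM in RKO and 0.432 CPM in SW48 (means of non-LRCs). Most markers of other cell types had too few counts to test. CD3E of T cells, LUM and COL1A2 of fibroblasts and CDH5 and KDR of endothelium had 0 counts in all 8 libraries, and PTPRC, the pan-leukocyte marker, had a count in a single DLD1 library (0.0657 CPM). Of the 5 fibroblast, endothelial and leukocyte markers with enough counts to test, VWF and PDGFRB were higher in DLD1, CD14 and COL1A1 were higher in HCT15, and LYZ did not pass. CD14 was at 6.48 to 8.66 CPM in HCT15 and 0.156 to 0.395 CPM in DLD1. COL1A1 was at 3.19 to 4.69 CPM in HCT15 and 0.389 to 0.849 CPM in DLD1. VWF was at 1.19 to 3.01 CPM in DLD1 and 0.116 to 0.307 CPM in HCT15. In all, 4 of 5 passed where 55.1% of all tested genes did.

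A conflict between labels and data in the rest of the series touches the names of the 2 lines. The series also holds 16 unsorted control libraries, with or without CFSE on day 1 or on day 5 of the labels, and their labels name the line as DLD1. In all 16, the profile had its highest Pearson's r with the mean of the non-LRC libraries labelled HCT15, at 0.928 to 0.992, against 0.89 to 0.945 with those labelled DLD1. All 48 sorted libraries had their highest r with their own labelled line. Of the 2115 genes that differed at least 2-fold between the sorted lines, 66.2% to 93.4% (median 78.5%) were nearer to HCT15 in these controls. Of 33 genes with at least 10 counts in every sorted DLD1 non-LRC library and at most 1 in every HCT15 one, 20 to 31 had at most 1 count in each control library, and of 46 genes with the opposite pattern, 34 to 43 had at least 10 counts.

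The same conflict appeared when the control libraries were tested against the sorted ones. In the unlabeled day 5 controls, 74 of 13891 genes (0.533%) differed from HCT15 non-LRCs, and 6592 (47.5%) differed from DLD1 non-LRCs (edgeR adjusted p under 0.05). At a difference of at least 2-fold these counts were 41 (0.295% of tested genes) and 2171 (15.6%). The controls with CFSE on day 5 stood further off, with 6061 genes (43.6%) that differed from HCT15 non-LRCs and 8901 (64.1%) that differed from DLD1 non-LRCs. Which set of libraries carries a name other than that of its cells cannot be told from these values. The study reports that its lines were genotyped. The tests between the sorted lines below do not use the control libraries, although the CPM scale does, through its TMM factors, and DLD1 and HCT15 are the names that the sorted libraries carry.

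The genes at the ends of the comparison were almost silent in a line, so the sequence before their start sites is shown for those with an entry in the RefSeq promoter table (GRCh38.p14, 250 bases before each start, CpG dinucleotides in capitals, where DNA methylation can act). The counts were made on hg19, a different build. MMRN1, with 0 counts in HCT15, and C16orf96, with 0 counts in DLD1, each have 2 listed start sites. MUC5AC and JSRP1, which stand beside them at the head of the lists of large differences, are named only. The windows of MMRN1 lie at chr4:89879261-89879510 and chr4:89894604-89894853, and those of C16orf96 at chr16:4538351-4538600 and chr16:4556090-4556339, all on the plus strand.
MMRN1 start site 1: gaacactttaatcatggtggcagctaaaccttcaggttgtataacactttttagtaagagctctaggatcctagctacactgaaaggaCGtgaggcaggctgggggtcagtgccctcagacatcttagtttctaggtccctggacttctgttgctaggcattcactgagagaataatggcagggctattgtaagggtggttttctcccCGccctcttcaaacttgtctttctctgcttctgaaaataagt
MMRN1 start site 2: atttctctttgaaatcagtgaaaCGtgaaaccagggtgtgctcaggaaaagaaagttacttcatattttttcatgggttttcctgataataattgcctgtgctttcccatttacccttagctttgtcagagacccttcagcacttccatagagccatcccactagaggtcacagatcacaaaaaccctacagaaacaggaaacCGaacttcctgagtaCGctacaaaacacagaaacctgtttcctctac
C16orf96 start site 1: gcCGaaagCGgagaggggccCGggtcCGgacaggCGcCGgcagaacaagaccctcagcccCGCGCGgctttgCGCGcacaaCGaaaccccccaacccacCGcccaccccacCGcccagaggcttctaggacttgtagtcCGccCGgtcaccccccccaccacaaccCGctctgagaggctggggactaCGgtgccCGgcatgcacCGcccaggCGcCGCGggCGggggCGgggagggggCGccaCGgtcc
C16orf96 start site 2: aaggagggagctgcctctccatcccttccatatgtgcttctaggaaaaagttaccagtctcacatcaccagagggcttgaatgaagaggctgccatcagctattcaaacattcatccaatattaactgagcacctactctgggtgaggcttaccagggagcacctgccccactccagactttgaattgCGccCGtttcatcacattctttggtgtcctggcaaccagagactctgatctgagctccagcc

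The windows before MMRN1 hold 2 and 3 CpG dinucleotides, and those before C16orf96 hold 27 and 2. Among all tested protein-coding genes with an entry (9990 of 12258, first-listed start site), the median was 21 CpG, and 73.9% had at least 15. Of the protein-coding genes among the 33 that were at or near 0 in HCT15, 19 of 29 had an entry, with a median of 6 CpG and 31.6% with at least 15. Of those among the 46 at or near 0 in DLD1, 28 of 43 had an entry, with a median of 16 and 57.1% with at least 15. These shares describe the sequence only, and methylation was not measured.

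The 4 DLD1 libraries held between 12777736 and 15078304 reads on genes and the 4 HCT15 libraries between 13254613 and 16271761. The median absolute difference in log2 CPM between libraries was 0.095 to 0.159 within DLD1, 0.124 to 0.226 within HCT15 and 0.321 to 0.365 between the lines. In both lines, replicates 1 and 2 resembled each other and differed from replicates 3 and 4 for many genes. For example, TGFBI, a secreted matrix protein, was at 531 and 663 CPM in DLD1 replicates 1 and 2 and at 364 and 387 CPM in replicates 3 and 4. In HCT15 it was at 49.5 and 47.7 CPM and at 25 and 23.3 CPM. The labels give no reason for this split, and with the counts summed within each pair of replicates, leaving 2 libraries a line, 4792 genes still passed.

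Of 13891 genes with enough counts to test, 7658 (55.1%) differed between DLD1 and HCT15 non-LRCs at an adjusted p under 0.05, with 3788 (27.3%) higher in DLD1 and 3870 (27.9%) higher in HCT15. With library size alone in place of TMM scaling, 2909 were higher in DLD1 and 4774 in HCT15, so the split between the directions depends on the scaling, and the median of all genes moved by -0.1 on the log2 scale. Most differences were small. An absolute log2 fold change under 0.5 was found for 1634 genes higher in DLD1 and 1467 higher in HCT15, and differences of at least 2-fold for 875 (6.30%) and 1240 genes (8.93%), or 15.2% in all. An absolute log2 fold change of at least 3 was found for 194 and 250 genes. Processed pseudogenes leaned to DLD1, with 76 higher and 11 lower of 238 tested. Long non-coding RNAs, by contrast, were higher in DLD1 for 122 and in HCT15 for 182 of 706.

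**Figure D1:**
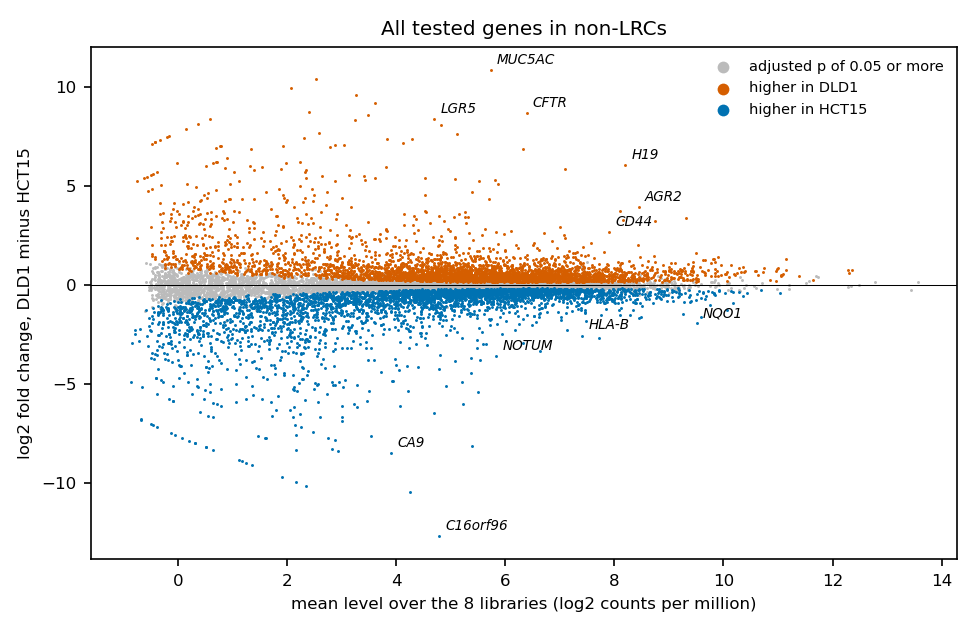
Each dot is a tested gene, with its mean level over the 8 non-LRC libraries on the x axis (log2 CPM) and the fitted log2 fold change, DLD1 minus HCT15, on the y axis. Orange dots (3788) are higher in DLD1, blue dots (3870) are higher in HCT15 and grey dots did not pass, and the thin streaks at the far left are genes with 0 counts in a line, whose fitted fold change depends on the prior count.

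The genes named next had the largest fitted fold changes among protein-coding genes (mean log2 CPM of 1 or more), and the order of those at or near 0 counts in a line depends on the prior count. Toward DLD1, the list was headed by MUC5AC (ENSG00000215182, chr11:1151580-1222364 on GRCh37), a gel-forming mucin best known from stomach and airway. It was at 104, 97.4, 92.7 and 108 CPM in the 4 DLD1 libraries and at 0, 0.0613, 0.119 and 0 CPM in HCT15, where 3 counts were found in all. The ratio of its pooled CPM was 2176, with a 95% exact counting interval of 744 to 10553. TFF1, a trefoil peptide that is secreted with this mucin in stomach, was at 8.3, 9.07, 6.47 and 8.01 CPM in DLD1 and had 0 counts in HCT15, so that it was at least 173-fold higher against a floor of 3 counts over the group. Both genes were also low in the 16 unsorted controls, with at most 0.576 CPM for MUC5AC and 0 CPM for TFF1.

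CFTR, the chloride channel of crypt epithelium, was at 142, 122, 183 and 185 CPM in DLD1 and at 0.174, 0.184, 0.534 and 0.614 CPM in HCT15 (log2 fold change 8.7, SE 0.26, edgeR adjusted p = 6.56e-10). MMRN1 (ENSG00000138722, chr4:90800683-90875780 on GRCh37), a protein of platelets and endothelium, was at 10.3, 9.34, 11.3 and 12.8 CPM in DLD1 and had 0 counts in HCT15, at least 235-fold higher. CRTAM, a receptor of activated T cells, was at 22.2, 25.4, 12.5 and 12 CPM in DLD1 and at 0.0578, 0, 0 and 0 CPM in HCT15. The ratio for CRTAM was 1189, but with a single read in HCT15 its counting interval ran from 213 to 46999. PHGR1, a small protein of intestinal epithelium, was at 8.96 to 11.8 CPM in DLD1 and had a single count in HCT15. LAMA2, a laminin chain of basement membranes, was at 43.8 to 66.1 CPM against 0.119 to 0.245 CPM. OLFML3, a secreted glycoprotein, was at 49.8 to 80.3 CPM against 0.178 to 0.429 CPM. KLHL4 and the endogenous retroviral envelope gene ERVMER34-1 completed the list of 12, with LGR5 and ISX, which are described below.

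Toward HCT15, the list was headed by C16orf96 (ENSG00000205832, chr16:4606341-4650759 on GRCh37), an open reading frame of no assigned function. It was at 52.4, 49.8, 53.6 and 49.5 CPM in HCT15 and had 0 counts in all 4 DLD1 libraries, at least 1003-fold higher in HCT15 than the floor of 3 counts over DLD1. The 16 unsorted controls held it at 31.8 to 51.7 CPM. JSRP1 (ENSG00000167476, chr19:2252251-2269758), a protein of muscle sarcoplasmic reticulum, was at 38.3, 33.2, 37.2 and 31.1 CPM in HCT15 and at 0.0659, 0, 0 and 0 CPM in DLD1. Its exons overlap those of OAZ1 on the opposite strand, and the strand setting of the counting is not stated. An annotated overlap with a gene on the opposite strand was also found for CFTR, ERVMER34-1, LGR5, LAMA2, PRKD1, DKK1, CA9, FOXJ1 and EVA1B.

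Other genes of HCT15 were at or near 0 counts in DLD1. RAB38, a small GTPase of pigment and lysosome-related vesicles, was at 7.98, 12, 7.83 and 8.33 CPM, at least 176-fold above the floor of DLD1. PRKD1, protein kinase D1, was at 7.12 to 9.08 CPM with 0 counts in DLD1 (at least 154-fold), and FBLN5, a protein of elastic fibres, was at 4.92 to 8.19 CPM (at least 129-fold). DKK1, a secreted inhibitor of Wnt receptors, was at 3.01, 4.11, 4.45 and 4.78 CPM (at least 79.1-fold). CA9, a carbonic anhydrase best known as a target of the hypoxia response, had 4 counts in DLD1 and was at 30.4, 30.9, 26 and 21.6 CPM in HCT15. FOXJ1, the regulator of motile cilia, had 2 counts in DLD1 and was at 20.1, 15.9, 10.8 and 7.64 CPM in HCT15. A4GALT, FNDC10 and NFATC2, with 0 counts in DLD1, and EVA1B, with a single count, made up the rest.

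**Figure D2:**
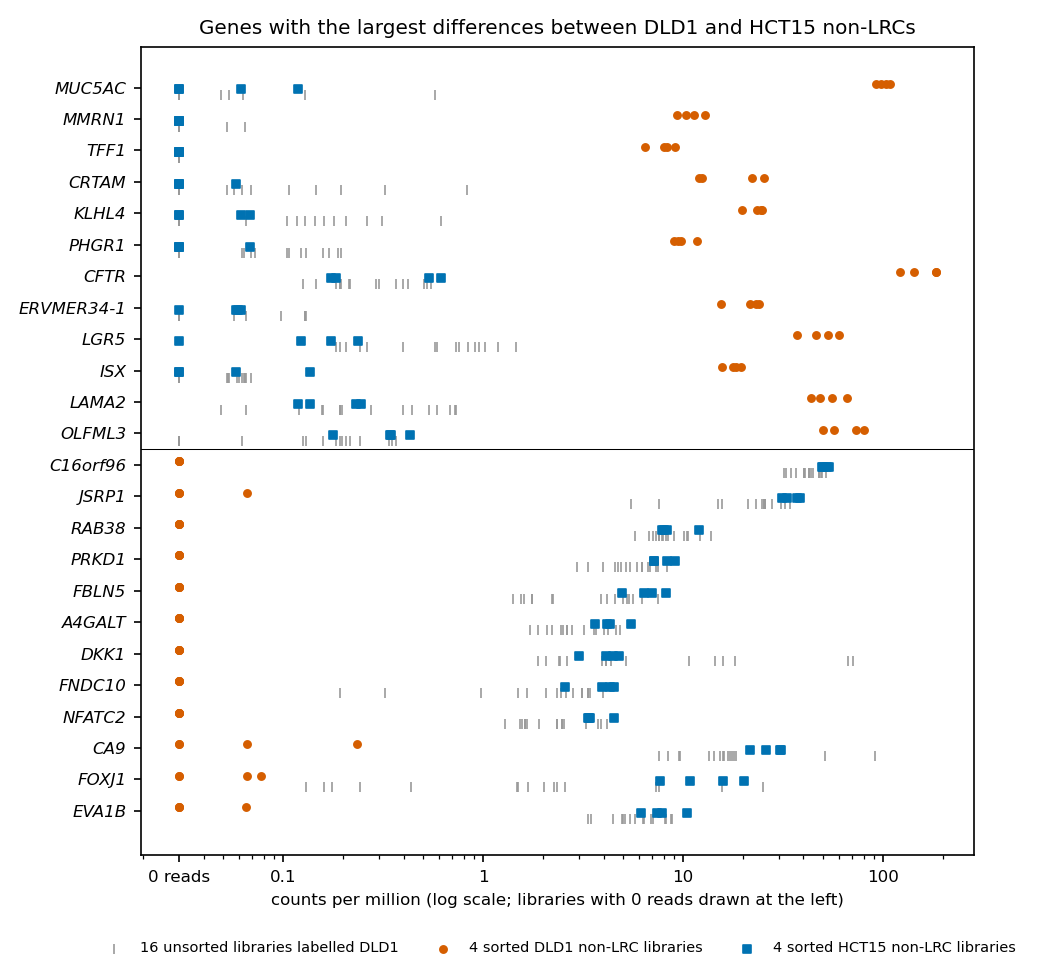
CPM on a log axis for the 12 genes with the largest difference in each direction, with a dot for each of 4 sorted DLD1 non-LRC libraries, a square for each of 4 sorted HCT15 non-LRC libraries and a tick for each of the 16 unsorted libraries labelled DLD1. The choice of these genes asked for sorted lines that pass the test and do not overlap (48.7% of tested genes), and most ticks lie near the HCT15 squares, apart from those of FOXJ1, which spread towards the DLD1 dots, with C16orf96 at 31.8 to 51.7 CPM and MUC5AC at 0.576 CPM or less.

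By detection alone, 33 genes had at least 10 counts in every DLD1 library and at most 1 in every HCT15 library, and 46 genes showed the opposite. Of these, 11 and 22 had 0 counts in all 4 libraries of the other line. Protein-coding genes made up 29 and 43 of these. In the LRC libraries of the line without reads, which are separate libraries, 18 of the 33 and 23 of the 46 genes were again at most at 1 count in every library. The other 4 lines of the study differed in which of these genes they used. HT55 had at least 1 CPM of 15 and SW948 of 10 of the 33 genes of DLD1, while RKO had none and SW48 had 2. Of the 46 genes of HCT15, HT55 had 10, SW948 14, RKO 12 and SW48 9, and 16 of the 33 and 23 of the 46 were below 1 CPM in all 4 other lines.

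Secretory genes with enough counts to test were mostly higher in DLD1. Of 31 entries in the list of goblet, enteroendocrine and mucin genes, 13 were tested. Reads in a single line were enough for a gene to be tested. Of these 13, 11 were higher in DLD1 and 2 in HCT15 (against 27.3% and 27.9% of all genes). The median log2 fold change was 4.94, or 4.82 with genes at 0 counts set at their bound, against -0.01 over all tested genes. In refits of the sorted libraries the median ran from 0.57 to 5.15, and 5 to 17 members passed. These refits include looser and stricter count filters, which change the members tested, so the size depends on which members enter. With library size alone and the same 13 members, the median was 4.85, with 11 higher in DLD1 and 2 in HCT15. TFF3, the trefoil peptide of goblet cells, was at 23.5, 25.6, 29.7 and 28.5 CPM in DLD1 and at 0.116, 0.123, 0.119 and 0.273 CPM in HCT15 (log2 fold change 7.37, SE 0.2). AGR2, a protein disulfide isomerase needed to fold mucins, was at 608, 611, 622 and 644 CPM against 37, 32.9, 45.5 and 45.5 CPM (3.94, SE 0.11). MUC2, the main mucin of the normal colon, was barely detected, at 0.132 to 0.46 CPM in DLD1 and 0 to 0.136 CPM in HCT15, and had too few counts to test. In LRCs the same list had 11 members higher in DLD1 and 3 in HCT15 (26.8% and 27.7% of all genes tested in LRCs), with a median of 3.82.

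Among Wnt targets and crypt stem cell genes, 16 of 30 were higher in DLD1 and 9 in HCT15, with a median of 0.35. The share that passed was 83.3%, against 55.1% of all tested genes (27.3% higher in DLD1 and 27.9% in HCT15). LGR5 (ENSG00000139292, chr12:71833578-71980090 on GRCh37), the receptor of R-spondins that marks crypt stem cells, was at 46, 37, 60.4 and 53 CPM in DLD1 and at 0.174, 0.123, 0.237 and 0 CPM in HCT15 (log2 fold change 8.38, SE 0.3, edgeR adjusted p = 2.87e-09). CD44, a hyaluronan receptor, was at 377, 366, 396 and 437 CPM against 57.7, 55.8, 64.5 and 63.1 CPM (2.7, SE 0.09). EPHB2, a receptor of the lower crypt, was at 122 to 162 CPM against 52.2 to 66.6 CPM (1.3, SE 0.1), and MYC was at 196 to 232 CPM against 104 to 121 CPM (0.98, SE 0.08).

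Other members of the Wnt list went the opposite way or did not pass. NOTUM, a secreted Wnt deacylase, was at 92.1, 77.2, 118 and 104 CPM in HCT15 and at 8.37, 8.68, 8.04 and 8.17 CPM in DLD1 (log2 fold change -3.57, SE 0.13), and DKK1 had reads in HCT15 and none in DLD1. Both of these inhibit Wnt signaling. AXIN2, a feedback inhibitor that is often taken as a readout of the pathway, was at 845, 810, 1079 and 1054 CPM in DLD1 and at 680, 680, 835 and 906 CPM in HCT15. The groups overlapped, with a log2 fold change of 0.28 (SE 0.13, edgeR adjusted p = 0.0802, or 0.00353 with the replicate number as a block, a term for what same-numbered libraries share).

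The genes of absorptive cells and of intestinal identity had members higher in each line, more of them in DLD1. Of 8 tested enterocyte genes, 4 were higher in DLD1 and 1 in HCT15, all at least 2-fold (62.5% passed, against 55.1% of all tested genes). KRT20, a keratin of mature colonocytes, was at 31.8, 36.6, 34.8 and 36.9 CPM in DLD1 and at 2.6, 1.96, 4.03 and 3.55 CPM in HCT15 (3.52, SE 0.17). CEACAM5, the carcinoembryonic antigen, was at 5.68 to 11.2 CPM against 0.237 to 0.955 CPM. Of 26 intestinal lineage transcription factors, 11 were higher in DLD1 and 6 in HCT15 (65.4% passed, against 55.1% of all tested genes). At least 2-fold, these were 8 and 1. In LRCs, 18 were higher in DLD1 and 5 in HCT15. ISX, a homeobox factor of the gut, was at 19.4, 15.7, 17.8 and 18.4 CPM in DLD1 and had 3 counts in HCT15. FOXA1 was at 186 to 246 CPM against 38.5 to 44.9 CPM, and PPARG, a nuclear receptor of differentiated colonocytes, was at 50.2 to 67 CPM against 3.92 to 5.9 CPM. CDX2, which defines intestinal fate, went the other way, at 229, 220, 258 and 278 CPM in DLD1 and at 324, 261, 501 and 478 CPM in HCT15 (-0.68, SE 0.18, edgeR adjusted p = 0.00882), with overlapping groups and a call that was lost with summed pairs of replicates.

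General epithelial genes showed less contrast. Of 12 genes of epithelial identity, 2 were higher in DLD1 and 3 in HCT15 (8 passed with the replicate number as a block, 3 and 5). The share that passed, 41.7%, was below the 55.1% of all tested genes. The cell surface antigen GPA33 was higher in DLD1, at 17.6 to 35.8 CPM against 2.87 to 6.77 CPM. CLDN3, a tight junction claudin, was higher in HCT15, at 45.9 to 55.9 CPM against 19.6 to 25.3 CPM. KRT8 and KRT18, the keratins of simple epithelia, had log2 fold changes of -0.2 (SE 0.12) and -0.01 (SE 0.13), and neither passed. Among 9 tested claudins, 5 were higher in HCT15 and 1 in DLD1 (66.7% passed). CLDN2, a claudin of leaky epithelia, was at 91.4 to 142 CPM in HCT15 and 35.4 to 44.4 CPM in DLD1.

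**Figure D3:**
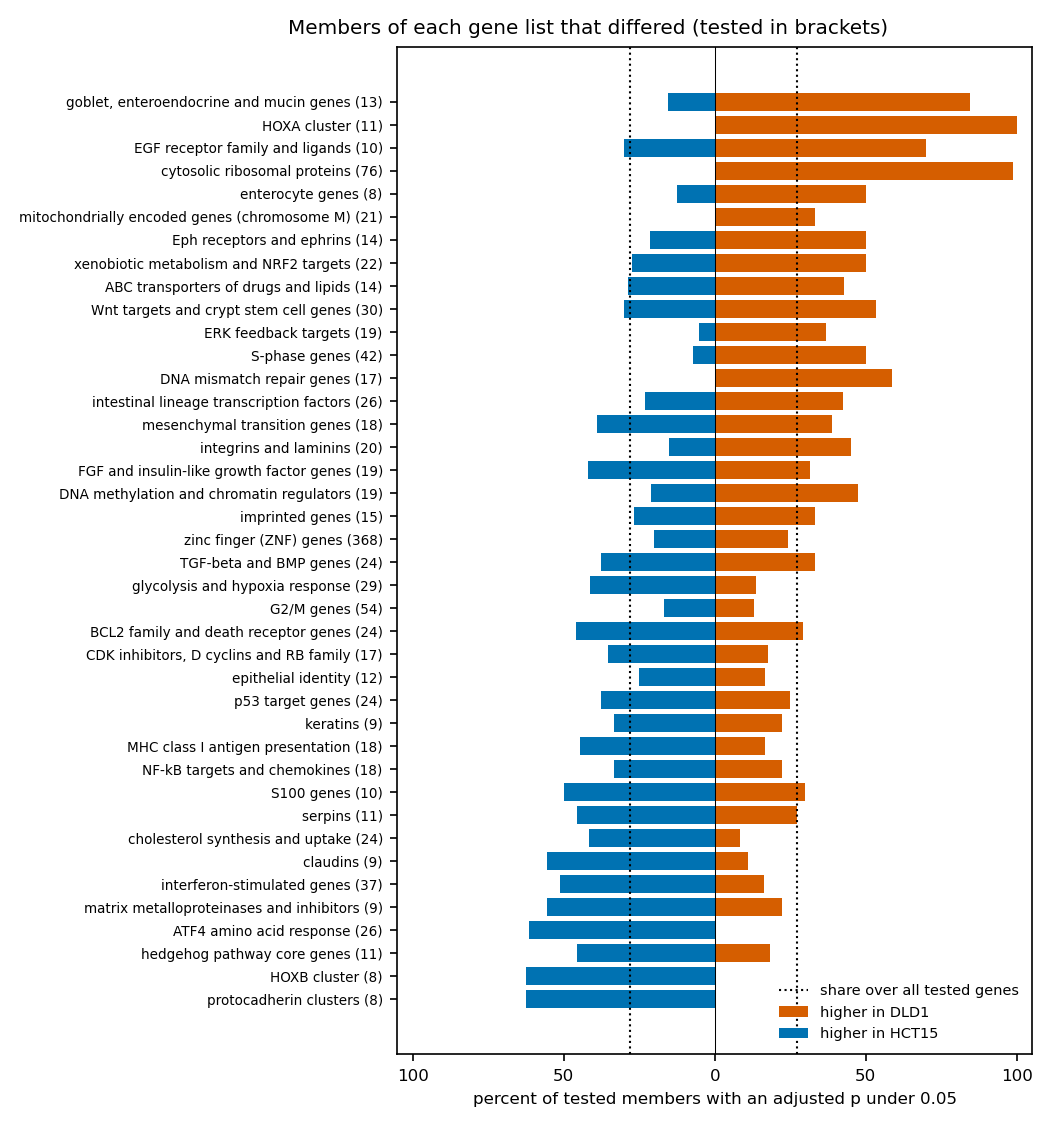
Percent of the tested members of each gene list that were higher in DLD1 (orange, to the right) or higher in HCT15 (blue, to the left) at an adjusted p under 0.05, with the number tested in brackets. Dotted lines mark the shares over all tested genes, 27.3% and 27.9%, and ribosomal proteins (75 of 76) and HOXA genes (11 of 11) reach furthest to the right.

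Hedgehog signaling, which the study followed in LRCs, runs from a ligand through PTCH1 and SMO to the GLI transcription factors. Of 11 tested core genes, 5 were higher in HCT15 and 2 in DLD1, with a median of -0.71 (63.6% passed, against 55.1% of all tested genes). SHH, a ligand, was at 11.3, 11, 8.78 and 7.37 CPM in HCT15 and at 1.38, 1.91, 1.89 and 1.79 CPM in DLD1 (log2 fold change -2.47, SE 0.19). PTCH1, the receptor and a target of the pathway, was at 72.3 to 92.2 CPM in DLD1 and 56.6 to 66.5 CPM in HCT15 (0.36, SE 0.09, edgeR adjusted p = 0.00675), a call that was lost with summed pairs of replicates. SMO, the transducer, had 5 counts in DLD1 and 0 in HCT15 and was not tested. GLI2, a transcription factor of the pathway, was at 7.81, 6.25, 7.83 and 7.98 CPM in HCT15 and at 0.659, 1.31, 0.98 and 1.71 CPM in DLD1 (-2.7, SE 0.23). GLI1, whose transcription is the usual readout, was at 1.16 to 2.18 CPM in HCT15 and 0.131 to 0.394 CPM in DLD1. HHIP, which binds and removes the ligand, was at 1.19 to 2.49 CPM in DLD1 against 0.116 to 0.368 CPM, and SUFU, an inhibitor of GLI proteins, did not pass (-0.24, SE 0.1, edgeR adjusted p = 0.0656, or 0.0206 with the replicate number as a block).

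All 10 tested genes of the EGF receptor family and its ligands passed, 7 higher in DLD1 and 3 in HCT15. The receptor ERBB3 was at 638 to 720 CPM in DLD1 and 288 to 339 CPM in HCT15 (log2 fold change 1.15, SE 0.08). The ligand BTC was at 17.7 to 22.2 CPM against 9.42 to 11.9 CPM, while the ligand NRG2 was at 1.04 to 1.6 CPM in HCT15 and 0.0657 to 0.131 CPM in DLD1. Among 19 ERK feedback targets, 7 were higher in DLD1 and 1 in HCT15 (11 and 3 with the replicate number as a block). The share that passed, 42.1%, was below the 55.1% of all tested genes. Among 19 FGF and insulin-like growth factor genes, 6 were higher in DLD1 and 8 in HCT15. IGF2, a growth factor, was at 30.6, 37.5, 25.2 and 29.9 CPM in DLD1 and at 2.6, 2.15, 2.2 and 3.28 CPM in HCT15, whereas IGFBP4, which binds such factors, was at 218 to 449 CPM in HCT15 and 44.8 to 65.9 CPM in DLD1.

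TGF-beta and BMP genes had a median of 0, with 8 of 24 higher in DLD1 and 9 in HCT15. The share that passed was 70.8%, against 55.1% of all tested genes (27.3% higher in DLD1 and 27.9% in HCT15). BMP2 was at 22.8, 23.2, 15.9 and 17.6 CPM in DLD1 against 0.347, 0.429, 0.356 and 0.887 CPM in HCT15. The BMP receptor BMPR1B was at 7.03 to 12.1 CPM against 0 to 0.307 CPM, and BMP4 was abundant in both, at 780 to 885 CPM against 349 to 429 CPM. Eph receptors and ephrins, which sort crypt cells by repulsion, were higher in DLD1 for 7 of 14 and in HCT15 for 3 (71.4% passed). EFNB2 was at 99.6 to 127 CPM in DLD1 against 14.8 to 18.3 CPM in HCT15.

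Mesenchymal transition genes did not separate the lines as a list, with 7 of 18 higher in each. TGFBI was higher in DLD1 (log2 fold change 3.73, SE 0.28). TPM2, a tropomyosin, was at 28.8, 34.8, 25.9 and 18.9 CPM in HCT15 and at 1.65, 2.56, 1.89 and 2.02 CPM in DLD1. MMP14, a membrane-anchored matrix protease, was at 32.6, 28.1, 26.9 and 28.8 CPM in HCT15 and at 2.04, 1.97, 1.31 and 0.544 CPM in DLD1 (-4.28, SE 0.22). Of 9 matrix metalloproteinases and their inhibitors, 5 were higher in HCT15, and the inhibitor TIMP3 was higher in DLD1, at 39.3, 48.8, 20 and 22.9 CPM against 0, 0.245, 0.237 and 0.409 CPM. Of 20 integrins and laminins, 9 were higher in DLD1 and 3 in HCT15 (60% passed, against 55.1% of all tested genes). ITGB6 was at 59.1 to 76.7 CPM in DLD1 against 7.71 to 13 CPM. S100P, a calcium-binding protein, was uneven within DLD1, at 41.8 and 73.3 CPM in replicates 1 and 2 and 16.4 and 15.2 CPM in replicates 3 and 4, and stayed at or below 0.307 CPM in HCT15.

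Of the genes of immune recognition that passed, more were higher in HCT15 than in DLD1, where 27.9% and 27.3% of all tested genes were. Of 18 tested MHC class I genes, 8 were higher in HCT15 and 3 in DLD1. HLA-B was at 284, 243, 293 and 270 CPM in HCT15 and at 52.2, 53.4, 40.2 and 43.3 CPM in DLD1 (log2 fold change -2.54, SE 0.11). B2M, the shared light chain, was at 77.3 to 90.1 CPM in HCT15 and 45.3 to 54.5 CPM in DLD1. HLA genes are polymorphic and resemble each other, and reads that aligned to several places were not counted. CD74, the invariant chain of MHC class II, was at 5.03, 2.88, 6.64 and 6.35 CPM in HCT15 and had a single count in DLD1. Of 37 interferon-stimulated genes, 19 were higher in HCT15 and 6 in DLD1, with a median of -0.43. IFITM1 was at 21.2, 21.1, 37.9 and 28.8 CPM in HCT15 and at 1.25, 0.723, 0.719 and 1.17 CPM in DLD1, while OAS3 and OAS1, sensors of double-stranded RNA, were higher in DLD1, with OAS3 at 176 to 202 CPM against 64.6 to 78 CPM. Of 18 NF-kB targets and chemokines, 4 were higher in DLD1 and 6 in HCT15 (55.6% passed, against 55.1% of all tested genes). CXCL5 was at 38.3 to 46.1 CPM in DLD1 and 1.21 to 2.46 CPM in HCT15. IL32 was at 20.2 to 27.4 CPM in HCT15 and 0.855 to 1.31 CPM in DLD1.

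In 3 metabolic lists, more members were higher in HCT15 than in DLD1, although for glycolysis and cholesterol genes the share that passed, 55.2% and 50%, was near or below the 55.1% of all tested genes. None of 26 tested genes of the ATF4 response, which answers amino acid shortage, was higher in DLD1, and 16 were higher in HCT15, with a median of -0.7. ATF3 was at 11.5 to 14.3 CPM in HCT15 and 2.29 to 4.55 CPM in DLD1, and PCK2 was at 67.4 to 112 CPM against 42.8 to 50.6 CPM. The medium, which differed between the lines, cannot be told apart from the line here. Of 29 glycolysis and hypoxia genes, 12 were higher in HCT15 and 4 in DLD1, although the median was near 0. SLC2A3, a glucose transporter, was at 85.4, 90.7, 60.8 and 51 CPM in HCT15 and at 5.6, 6.84, 4.05 and 6.14 CPM in DLD1, and ENO2, an enolase, was at 59.8 to 76.9 CPM against 13.5 to 20.4 CPM. Of 24 cholesterol genes, 10 were higher in HCT15 and 2 in DLD1 (14 and 5 with the replicate number as a block).

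Genes of xenobiotic metabolism and NRF2 targets were higher in DLD1 for 11 of 22 and in HCT15 for 6. The share that passed was 77.3%, against 55.1% of all tested genes (27.3% higher in DLD1 and 27.9% in HCT15). CYP2J2, a cytochrome P450, was at 58.8 to 71.2 CPM in DLD1 and 5.21 to 10 CPM in HCT15. NQO1, a quinone reductase, was at 1316, 1321, 857 and 835 CPM in HCT15 and at 320, 345, 242 and 245 CPM in DLD1 (log2 fold change -1.92, SE 0.18). Among 14 ABC transporters, 6 were higher in DLD1 and 4 in HCT15 (71.4% passed). ABCA3, a lipid transporter, was at 123 to 155 CPM in HCT15 and 16.2 to 20 CPM in DLD1. ABCB1, the drug efflux pump P-glycoprotein, was at 42.5, 32.8, 83.6 and 82.4 CPM in DLD1 and at 95.2, 87.4, 153 and 186 CPM in HCT15 (-1.12, SE 0.32, edgeR adjusted p = 0.0107), a call that was lost with summed pairs of replicates.

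Cytosolic ribosomal protein genes were higher in DLD1 almost without exception. Of 76 tested, 75 were higher in DLD1 and none in HCT15, with log2 fold changes of 0.27 to 1.42 and a median of 0.68. With library size alone in place of TMM, 72 were higher and the median was 0.58. RPL27A was at 1189, 1131, 1299 and 1248 CPM in DLD1 and at 456, 415, 541 and 486 CPM in HCT15 (1.35, SE 0.09), and RPS27A was at 1034 to 1176 CPM against 495 to 541 CPM. Together these genes took 6.66% to 7.58% of the counts in DLD1 and 4.26% to 5.46% in HCT15. Many of them have processed pseudogenes, and reads that aligned to several places were not counted. Such alignments numbered 37.8 to 42.2 per 100 counts on genes in DLD1 and 30.4 to 34.7 in HCT15, and their part in the difference was not tested. LRCs of the 2 lines showed 75 genes higher in DLD1 and none in HCT15.

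Cell cycle genes had small medians in non-LRCs. Of 42 S-phase genes, 21 were higher in DLD1 and 3 in HCT15, with a median of 0.3 (14 and 4 with library size alone). The share that passed, 57.1%, was near the 55.1% of all tested genes. CDCA7 was at 33.3 to 37 CPM in DLD1 and 10.7 to 21.9 CPM in HCT15. Of 54 G2/M genes, 7 were higher in DLD1 and 9 in HCT15, with a median of -0.06, a share of 29.6% that was below that of all genes. Among CDK inhibitors, D cyclins and the RB family, 6 of 17 were higher in HCT15 and 3 in DLD1 (52.9%, near the share of all genes). CDKN1A, which encodes p21 and is a target of p53, was at 129, 129, 103 and 82 CPM in HCT15 and at 29.6, 31.3, 15.6 and 17.3 CPM in DLD1 (log2 fold change -2.25, SE 0.22). CDKN2D, an inhibitor of the D cyclin kinases, was at 7.3 to 8.96 CPM in HCT15 and 2.22 to 3.16 CPM in DLD1, while CDKN1C was higher in DLD1, at 17.4 to 19.7 CPM against 9.72 to 16.9 CPM (0.53, SE 0.17, edgeR adjusted p = 0.0178), and did not pass with summed pairs of replicates or with library size alone. Of 24 p53 targets, 9 were higher in HCT15 and 6 in DLD1 (62.5% passed, against 55.1% of all tested genes). PHLDA3 was at 12 to 13.5 CPM in HCT15 and 0.131 to 0.544 CPM in DLD1.

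Mismatch repair genes were higher in DLD1 for 10 of 17 and in HCT15 for none, with a median of 0.28. The share that passed, 58.8%, was near the 55.1% of all tested genes. With library size alone, 5 passed. MSH6, the gene that is defective in these lines, was at 25.1, 22.2, 25 and 21.9 CPM in DLD1 and at 11.3, 15.8, 11.7 and 8.87 CPM in HCT15 (log2 fold change 0.97, SE 0.15). It lies on chromosome 2, in a 10 Mb stretch where 22 of 33 genes were higher in DLD1 and 2 in HCT15. In LRCs, 3 of the mismatch repair genes were higher in DLD1 and 3 in HCT15.

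HOX genes, which record the position of a tissue along the body axis, differed by cluster. All 11 tested HOXA genes were higher in DLD1, where 27.3% of all tested genes were, with a median log2 fold change of 1.56. HOXA11 was at 63.4, 69, 65.8 and 61.7 CPM in DLD1 and at 19.9, 18, 19.6 and 19.9 CPM in HCT15 (1.74, SE 0.07), and HOXA3 was at 39.6 to 49.3 CPM against 6.74 to 11.9 CPM. By contrast, 5 of 8 HOXB genes and 5 of 7 HOXD genes were higher in HCT15 (27.9% of all tested genes), with medians of -0.81 and -2.47. A single HOXD gene was higher in DLD1, and no HOXB gene was. In refits of the sorted libraries the HOXD median ran from -2.61 to -0.49, and 0 to 7 members passed. These refits include looser and stricter count filters, which change the members tested, so its size depends on the fit and the filter. With library size alone the HOXD median was -2.56, with 1 member higher in DLD1 and 6 in HCT15. HOXB5 was at 111, 82.9, 172 and 172 CPM in HCT15 and at 32.5, 32.1, 39.6 and 32.4 CPM in DLD1. HOXD10 was at 3.41 to 4.97 CPM against 0.311 to 0.789 CPM. Of 4 HOXC genes, HOXC6 alone passed, with 6.69 to 9.37 CPM in HCT15 and 1.97 to 3.66 CPM in DLD1. Exons of neighbouring HOX genes and of their antisense transcripts overlap.

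Imprinted genes, which are transcribed from a single parental copy in most tissues, were higher in DLD1 for 5 of 15 and in HCT15 for 4. The share that passed, 60%, was near the 55.1% of all tested genes. The long non-coding RNA H19 was at 498, 562, 541 and 584 CPM in DLD1 and at 5.73, 6.74, 10.7 and 9.14 CPM in HCT15 (log2 fold change 6.07, SE 0.18, edgeR adjusted p = 6.26e-10). Its neighbour IGF2 was also higher in DLD1, as given above. MKRN3 was at 3.09 to 4.35 CPM in DLD1 and 0 to 0.116 CPM in HCT15. Of 368 zinc finger genes, 89 were higher in DLD1 and 74 in HCT15, a lower share than over all genes, yet some were present in HCT15 and nearly absent in DLD1, among them ZNF559 (8.05 to 8.56 CPM against 0 to 0.198 CPM). Of 19 regulators of DNA methylation and chromatin, 9 were higher in DLD1 and 4 in HCT15. The methyltransferase gene DNMT3A was at 21.2 to 24.4 CPM in DLD1 and 9.73 to 11.8 CPM in HCT15. EZH2, a histone methyltransferase, was at 22.7 to 26.8 CPM in DLD1 and 37.3 to 54.6 CPM in HCT15.

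Along the chromosomes, most regions showed no common shift. Of 241 bins of 10 Mb with at least 20 tested genes, the median log2 fold change of the bin lay between -0.2 and 0.23 at the 5th and 95th percentile, but 11 bins reached 0.3 and 1 was below -0.3. On chromosome 2, the 4 adjoining bins from 30 to 70 Mb had medians of 0.58, 0.5, 0.98 and 0.5. In the bin from 50 to 60 Mb, 16 of 20 genes were higher in DLD1 and none in HCT15. PSME4, an activator of the proteasome in that bin, was at 222, 213, 210 and 205 CPM in DLD1 and at 80.9, 88.3, 69.2 and 78.8 CPM in HCT15. On chromosome 11, 73 of 118 genes between 0 and 10 Mb were higher in DLD1 and 18 in HCT15 (median 0.5), a bin that holds MUC5AC, H19, IGF2 and RPL27A. Its gene PKP3, a plakophilin of desmosomes, was at 189 to 203 CPM in DLD1 and 60.9 to 69.7 CPM in HCT15.

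Other stretches leaned to DLD1 on chromosome 3 from 170 to 180 Mb (median 0.63), on chromosome 6 from 130 to 140 Mb (0.56), on chromosome 7 from 20 to 30 Mb (0.48), where the HOXA genes lie, and on chromosome 4 from 150 to 160 Mb (0.44). TMEM200A, on chromosome 6, was at 108, 101, 111 and 109 CPM in DLD1 and at 3.12, 3.49, 3.2 and 2.46 CPM in HCT15. TNIK, a kinase of the Wnt pathway on chromosome 3, was at 41.2 to 48.9 CPM against 7.23 to 9.14 CPM. The bin that leaned to HCT15 was on chromosome 6 from 0 to 10 Mb, with a median of -0.56, where 26 of 39 genes were higher in HCT15 and 6 in DLD1. SERPINB9, an inhibitor of granzyme B in this bin, was at 27.8 to 31.1 CPM in HCT15 and 5.98 to 7.77 CPM in DLD1. In LRCs the medians of these bins were alike, from 0.38 to 0.81 for the bins on chromosomes 2, 3, 4, 6, 7 and 11 named here and -0.63 for the bin at the start of chromosome 6. Chromosome 19 leaned to HCT15 as a whole, with 343 of 908 genes higher there, 169 higher in DLD1 and a median of -0.15. DNA was not measured, and the part of copy number in these medians was not tested.

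**Figure D4:**
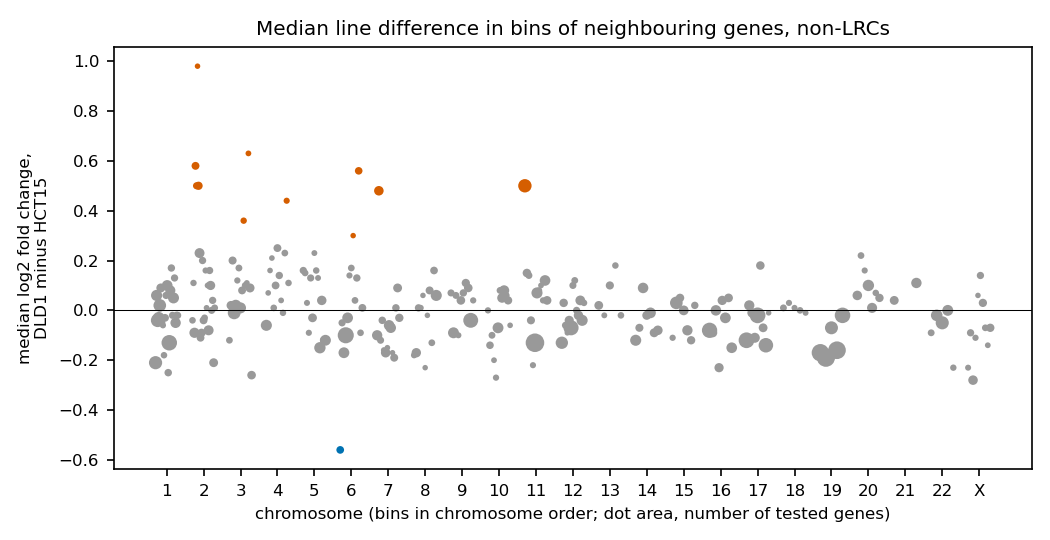
Median log2 fold change (DLD1 minus HCT15, y axis) of the tested genes in each of 241 bins of 10 Mb, in chromosome order along the x axis, with dot area for the number of tested genes. Orange dots are the 11 bins at 0.3 or above, 4 of them on chromosome 2, and the blue dot is the bin on chromosome 6 at -0.56.

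The LRC libraries of the same cultures gave a second measure of the difference between the lines, with 7677 of 14096 tested genes past the threshold (54.5%) and 2226 of them at least 2-fold apart (15.8%). Of 13743 genes tested in both populations, 7586 passed in non-LRCs and 7532 in LRCs, and 5749 passed in both in the same direction (75.8% and 76.3%) and 16 in opposite directions. Of the genes that differed at least 2-fold, 1582 did so in both (77.3% of 2046 in non-LRCs and 75.6% of 2093 in LRCs). A test of the interaction of line and population found 21 genes of 14616 (0.144%) whose line difference was unlike in the populations. Leaving out replicate number 1, 2, 3 or 4 left 2, 15, 0 or 4 such genes (2619 had an unadjusted p under 0.05 with all libraries and 1647 without number 3), and DESeq2 found 413. With the culture as a block, which pairs the non-LRCs and LRCs of each replicate number, 3017 genes passed, the 21 among them.

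Of the genes named here, PTK7, MMP14 and ABCA3 were among the 21. PTK7, a receptor of the Wnt and planar polarity pathways that marks crypt cells, was at 209, 207, 221 and 221 CPM in DLD1 and at 339, 293, 287 and 287 CPM in HCT15 in non-LRCs (log2 fold change -0.5, SE 0.07), and its difference in LRCs was 0.34. MMP14 differed by -4.28 in non-LRCs and -2.25 in LRCs, and ABCA3 by -2.93 and -2.16. The medians of the cell cycle lists were unlike in the populations. Of the G2/M genes, 41 of 54 were higher in HCT15 among LRCs, with a median of -0.83, where non-LRCs had a median of -0.06. None passed the interaction test in edgeR without a block (43 at an unadjusted p under 0.05, and 13 passed in DESeq2), and 48 did with the block. S-phase genes had a median of -0.32 in LRCs, with 18 higher in HCT15 and 2 in DLD1, against 0.3 in non-LRCs, and 37 passed the interaction test with the block and none without it (33 at an unadjusted p under 0.05, and 8 in DESeq2).

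**Figure D5:**
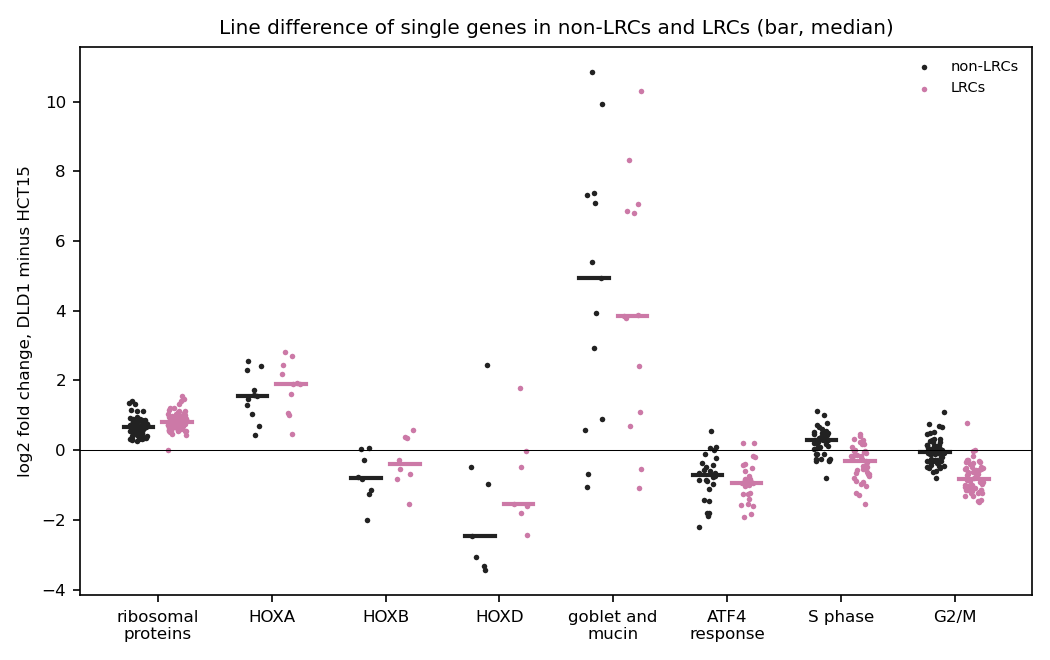
Each dot is a gene of the named list with its log2 fold change, DLD1 minus HCT15 (y axis), in non-LRCs (black) and LRCs (pink), and the bar is the median. Ribosomal protein, HOXA, HOXD, goblet and ATF4 genes keep their side of 0 as a median in both populations, while the S-phase median goes from 0.3 to -0.32 and the G2/M median from -0.06 to -0.83.

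The other pairs of lines in the same subtype differed in more genes by the same test. HT55 and SW948 (CCS1) differed in 10746 of 13947 genes (77.0%), with 4912 at least 2-fold (35.2%). RKO and SW48 (CCS2) differed in 9865 of 13463 (73.3%), with 4650 at least 2-fold (34.5%). For DLD1 and HCT15 these shares were 55.1% and 15.2%. For the genes at least 2-fold higher in DLD1, the mean of HT55 was nearer to DLD1 than to HCT15 for 51.8%, that of SW948 for 51.4%, that of RKO for 22.6% and that of SW48 for 31.8%. For the genes at least 2-fold higher in HCT15, the shares nearer to DLD1 were 67.8% in HT55, 64.8% in SW948, 59.8% in RKO and 55.7% in SW48. LGR5, for example, was at 120 ± 33.1 CPM in HT55, 34.1 ± 1.31 CPM in SW948, 0.0312 ± 0.0624 CPM in RKO and 3.15 ± 1.35 CPM in SW48 (SD, n = 4). CFTR was at 66.2 ± 22.3 CPM in HT55, 330 ± 11.3 CPM in SW948, 0.114 ± 0.189 CPM in RKO and 0.239 ± 0.16 CPM in SW48.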

How the data were processed

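RNA of 64 colorectal cancer cell line libraries was sequenced with 50-bp single-end reads. The files that the authors deposited hold raw read counts of 54127 Ensembl genes, 1 file a library, made after alignment to hg19. The submitters' processing notes name TopHat, HTSeq and DESeq, without versions. The gene annotation and the strand setting are not given in the sources used here. The study states that samples were randomized before library preparation. Reads that aligned to several places or to overlapping genes are in the summary rows of the files, which were left out of library sizes and tests. Symbols were found for 39260 genes and positions for 47098 (a table of gene names and GENCODE 44 for GRCh37), and no level of a sex-linked marker gene is given.

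Groups came from the sample labels. The test took genes that reached 10 counts in 4 or more of the 8 non-LRC libraries and compared DLD1 minus HCT15 with edgeR 4.0.16 in R 4.3.3 (TMM, two-sided quasi-likelihood test, Benjamini-Hochberg adjustment, threshold 0.05). CPM were counts per 1000000 reads on genes, with library totals scaled by TMM factors over all 64 libraries, folds against 0 counts used a floor of 3 counts over the group (0.0461 CPM in HCT15 and 0.0512 CPM in DLD1), and ratios with 1 to 3 counts were given an exact 95% interval. Intervals and floors cover counting error only. At this depth a gene at 0 counts was not detectable rather than absent.

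In simulated counts for 13891 genes, 200 of them changed by a log2 fold change of 1, edgeR recovered 95.5% of the changed genes, and 7.28% of its calls were false. The changed genes were drawn only from those with higher mean counts. The libraries were simulated as independent, without the split between replicates, and few genes were changed. These rates therefore do not carry over to genes with few counts or to the real comparison. Deviations from the group means of same-numbered DLD1 and HCT15 libraries correlated across genes at r = 0.147 to 0.248 in all 4 pairs (-0.271 to 0.229 for different numbers). Across the lines, different numbers on the same side of the split between replicates correlated at 0.122 to 0.229, which overlaps the same-numbered range. Pairing by number therefore cannot be told apart from that split. A fit with the number, which comes from the titles, as a block was the alternative. Same-numbered LRC and non-LRC libraries of a line correlated at 0.185 to 0.412 in DLD1 and 0.31 to 0.528 in HCT15. For LRC and non-LRC libraries, different numbers within replicates 1 and 2, or within 3 and 4, correlated at 0.195 to 0.291 in DLD1 and 0.325 to 0.533 in HCT15. No 2 libraries were alike within sampling noise.

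Named genes were the 12 protein-coding genes with the largest log2 fold change in each direction (adjusted p under 0.05, mean of at least 1 log2 CPM, groups not overlapping), the 3 genes with the smallest p in each of 41 lists and in each chromosome bin described, the genes that the study follows and cell type markers. The cell cycle lists (S phase, G2/M) came from Seurat 5.3.0, and cancer-testis antigens were a list with no tested member. The members and lists were chosen with earlier results of these data known. Alternatives were DESeq2 1.42.0, RLE factors, library size alone, no count filter, at least 10 counts in every library, the block, each library left out, summed replicates, all 24 non-LRC libraries in a fit, glmTreat, 20 Mb bins, and, added after seeing the data, the unsorted libraries in place of sorted DLD1. Some genes are not reported here.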

Additional observations from a re-analysis of the deposited data

Results flagged for a closer look

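With the 4 libraries of a group compared for each gene named in the text with at least 40 counts in the group, a single library stood apart from the other 3 in 10 of 186 groups, by a gap of more than 0.829 of the group's range. Chance alone marks about 1 in 20 groups in this way, close to the number found. In HCT15, replicate 2 stood apart for RAB38 (12 CPM against 7.83 to 8.33 CPM), GLI2 (6.25 CPM against 7.81 to 7.98 CPM) and HOXA11 (18 CPM against 19.6 to 19.9 CPM). Replicate 1 of HCT15 stood apart for NFATC2 (4.51 CPM against 3.34 to 3.44 CPM), ERBB3 (339 CPM against 288 to 296 CPM) and PTK7 (339 CPM against 287 to 293 CPM). Replicate 4 of HCT15 stood apart for GLI1 (2.18 CPM against 1.16 to 1.31 CPM) and EPCAM (941 CPM against 880 to 887 CPM). In DLD1, OAS1 was at 56.6 CPM in replicate 2 against 59.4 to 59.6 CPM, and HOXB5 was at 39.6 CPM in replicate 3 against 32.1 to 32.5 CPM.

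The line difference was unlike in non-LRCs and LRCs for MMP14, PTK7 and ABCA3 by the test of the interaction (edgeR, without a block). The differences of the log2 fold changes were -2.03 for MMP14 (adjusted p = 0.00523), -0.84 for PTK7 (0.00974) and -0.77 for ABCA3 (0.0477).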

How the results depend on the processing

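The count of 7658 genes was 6803 to 7629 with any 1 library left out (3383 to 3845 higher in DLD1, 3420 to 3784 higher in HCT15), and the count at least 2-fold was 2071 to 2142. It moved by more than 1.5 times with summed pairs of replicates, to 4792 genes (2410 higher in DLD1 and 2382 in HCT15). With the replicate number as a block it was 8040. The 2115 genes at least 2-fold became 1245 with at least 10 counts in every library, which removes genes silent in a line, and 1272 with glmTreat. With unsorted libraries labelled DLD1 in place of the sorted ones, 1206 genes were at least 2-fold apart from HCT15 for CFSE on day 5. For unlabeled cells on day 5, 74 genes passed (15 and 59 in the 2 directions) and 41 were at least 2-fold apart. The 33 and 46 genes at or near 0 in a line became 5 (0 in HCT15) and 15 (0 in DLD1) at a limit of 20 counts against 0.

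In LRCs the count was 6851 to 7707 with a library left out. The 21 interaction genes were 413 by DESeq2, 3017 with the culture as a block and 0 to 15 without a replicate number. The block let CDH17 (log2 fold change 0.46, edgeR adjusted p = 0.0226) and VIL1 (-0.44, 0.00393) pass and, beside AXIN2, SUFU and the counts given with it in the report, changed no other call of a named gene. Of 183 named genes tested, 172 passed, and 168 of these did so in the same direction in every refit of the sorted libraries that tested them. The refit with at least 10 counts in every library tested only 126 of the 183, since it removes genes silent in a line. The fit with glmTreat is not part of this count. The other 4 (CDX2, PTCH1, CDKN1C and ABCB1) lost their call with summed pairs of replicates, and none reversed. The causes were not tested. Depth limits genes under about 1 CPM, where a library holds few reads.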

Other observations

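Other gene families are given here beside the shares of all tested genes in DLD1 and HCT15 non-LRCs, where 27.3% were higher in DLD1 and 27.9% in HCT15. Of 8 tested genes of the protocadherin clusters, adhesion genes of neurons whose promoters are used in varying sets, 5 were higher in HCT15 and none in DLD1. PCDHB14 was at 6.48, 5.76, 9.31 and 11.5 CPM in HCT15 and at 1.19, 0.986, 1.37 and 1.17 CPM in DLD1. Of 24 genes of the BCL2 family and death receptors, 11 were higher in HCT15 and 7 in DLD1. BCL2, which blocks apoptosis, was at 7.87, 10.1, 8.13 and 9.28 CPM in HCT15 and at 1.91, 0.92, 1.57 and 1.32 CPM in DLD1 (log2 fold change -2.63, SE 0.2), and MCL1, of the same family, was at 332 to 364 CPM against 197 to 226 CPM. The mitochondrially encoded genes were higher in DLD1 for 7 of 21 and in HCT15 for none, so that 33.3% passed against 55.1% of all tested genes, and mitochondrial counts made up 5.42% to 7.16% of reads on genes in DLD1 and 4.44% to 7.79% in HCT15.

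Among 11 serpins, 5 were higher in HCT15 and 3 in DLD1, and among 10 S100 genes the counts were 5 and 3. SERPIND1, an inhibitor of thrombin, was at 1.19, 0.789, 1.63 and 1.17 CPM in DLD1 and had 0 counts in HCT15, at least 25.9-fold higher in DLD1 than the floor. Of 9 keratins, 3 were higher in HCT15 and 2 in DLD1 (55.6%, near the share of all genes). KRT15, a keratin of basal cells, was at 11.7, 11.9, 8.01 and 6.69 CPM in HCT15 and at 1.38, 1.38, 1.05 and 1.24 CPM in DLD1. Of 5 tested MHC class II genes, 3 were higher in HCT15 and 2 in DLD1. None of the cancer-testis antigens on the list had enough counts to test.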
